A study of Mus musculus with 60 samples.

Results

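The genes described here are 10 markers of liver macrophages, followed in mouse liver after partial hepatectomy (PHX) and in hepatocytes put into culture. They are the Kupffer cell markers Clec4f, Timd4, Vsig4, Cd5l and Marco, the general macrophage markers Adgre1 and Csf1r, and the monocyte markers Ccr2, Ly6c2 and Cx3cr1. These 10 of the 17473 genes of the liver table were chosen by name, with earlier results of the same samples known. Their own values are therefore given as a description, with no test. Tests are given for other macrophage genes.

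The series holds mRNA sequencing of 60 samples from mouse, 3 in each group, all labelled WT and C57BL/6. The study's methods name C57BL/6J mice for hepatocytes and PHX, and describe clones grown from hepatocytes that carried tdTomato under Albumin-Cre. The liver table has 18 samples: Normal liver, and livers taken 6 h, 24 h, 3 days (D3), 7 days (D7) and 14 days (D14) after PHX, in which most of the liver is cut away and the rest regrows. The cell table has 33 samples in 11 groups. Of these, the purity check uses freshly isolated Hepatocytes and their first culture (passage P0) with IL6 at D3 and D14, called IL6-iHPCs-D3 (P0) and IL6-iHPCs-D14 (P0). A separate table of 9 samples holds Primary hepatocytes and 2 cultures at day 7 of P0: IL6-iHPCs-D7 (P0), with IL6, and HCM-Hepa-D7 (P0), in the same hepatocyte medium (HCM) without it. The other 8 groups of the cell table are passaged IL6-iHPCs, which are proliferating progenitor-like cells, and the IL6-iMHs matured from them. The cell samples are technical repeats according to the study's figure legend. Nothing states whether the 3 livers of a group came from separate mice, so the spread and the p-values cover the differences between these samples, which may be technical. All values are FPKM, a level scaled by gene length and library depth, so genes can be compared with each other within a table.

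Kupffer cells are the macrophages that live in the sinusoids of the liver, take up particles and old red blood cells from portal blood, and renew themselves locally. Monocytes are their blood-borne relatives, which enter injured liver along chemokine gradients and can turn into macrophages that gain Kupffer cell markers with time. Survival of Kupffer cells depends on the receptor Csf1r and its ligands Csf1 and Il34. Entry of monocytes depends on the receptor Ccr2 and its ligands Ccl2, Ccl7 and Ccl12.

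Kupffer cell genes are known to be read under the transcription factors PU.1 (Spi1), MAF family members and nuclear receptors such as LXRα (Nr1h3). The 250 bases before the annotated start of 5 Kupffer cell markers and of Ly6c2 are shown because these genes moved together at D7 in the liver. They come from RefSeq on GRCm38.p6, 5′ to 3′ on the gene's strand, and 8 of the 10 genes matched an entry. Capitals mark every match, on either strand, to a PU.1 site AGGAAGT, a MAF half-site TGCTGAC, a nuclear receptor half-site AGGTCA, and the shorter cores GAGGAA (PU.1) and TGCTGA (MAF).
Clec4f, chr6:83656117-83656366 (minus strand): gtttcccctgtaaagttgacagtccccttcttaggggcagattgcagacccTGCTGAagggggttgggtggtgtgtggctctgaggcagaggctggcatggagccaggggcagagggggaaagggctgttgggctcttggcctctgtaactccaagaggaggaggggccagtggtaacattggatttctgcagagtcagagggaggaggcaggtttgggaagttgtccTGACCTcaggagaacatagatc
Timd4, chr11:46810549-46810798 (plus strand): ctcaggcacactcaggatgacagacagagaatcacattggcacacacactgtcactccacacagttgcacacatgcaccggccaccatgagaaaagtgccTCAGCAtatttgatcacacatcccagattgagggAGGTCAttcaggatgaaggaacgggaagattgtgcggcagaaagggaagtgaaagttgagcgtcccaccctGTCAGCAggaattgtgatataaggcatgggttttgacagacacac
Vsig4, chrX:96293439-96293688 (minus strand): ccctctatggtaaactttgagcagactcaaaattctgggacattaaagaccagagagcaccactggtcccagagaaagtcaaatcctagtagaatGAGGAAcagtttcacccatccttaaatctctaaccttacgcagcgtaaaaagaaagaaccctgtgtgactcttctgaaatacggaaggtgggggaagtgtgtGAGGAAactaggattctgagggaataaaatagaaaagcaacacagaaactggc
Cd5l, chr3:87357631-87357880 (plus strand): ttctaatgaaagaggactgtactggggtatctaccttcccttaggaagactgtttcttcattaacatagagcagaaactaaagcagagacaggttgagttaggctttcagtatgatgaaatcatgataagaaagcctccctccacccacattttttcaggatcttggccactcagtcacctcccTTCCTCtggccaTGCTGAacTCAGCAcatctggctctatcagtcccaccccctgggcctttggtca
Marco, chr1:120505025-120505274 (minus strand): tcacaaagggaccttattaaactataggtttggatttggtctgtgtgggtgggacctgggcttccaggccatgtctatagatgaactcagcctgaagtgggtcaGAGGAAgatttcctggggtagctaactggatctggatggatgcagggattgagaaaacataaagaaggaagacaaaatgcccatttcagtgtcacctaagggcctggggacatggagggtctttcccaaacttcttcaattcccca
Ly6c2, chr15:75111972-75112221 (minus strand): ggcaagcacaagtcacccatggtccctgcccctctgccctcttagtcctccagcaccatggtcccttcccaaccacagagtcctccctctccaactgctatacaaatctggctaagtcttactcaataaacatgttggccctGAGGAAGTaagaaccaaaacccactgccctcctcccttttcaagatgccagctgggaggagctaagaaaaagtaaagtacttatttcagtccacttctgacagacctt
The site AGGAAGT was found only in Ly6c2 among the 8 genes searched, against 7.69% of all 32851 promoters of the same length. The stretch before another annotated start of Ly6c2, chr15:75111938-75112187, is not shown. It holds 2 matches to AGGAAGT, against 1 in the stretch shown. TGCTGAC was found only in Timd4, against 3.81% of all promoters. AGGTCA was found in Clec4f and Timd4, against 14.0%. These motifs were picked before any promoter was searched, and the shorter cores, which can overlap them, were searched besides. GAGGAA was present in Marco, Cd5l, Ly6c2 and Vsig4, against 23.3% of all promoters, and TGCTGA in Cd5l, Clec4f and Timd4, against 16.1%. No motif was shared by all 5 Kupffer cell markers. A match is a run of letters and not a measured binding site.

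In the liver, Kupffer cell markers other than Marco were below normal at 6 h, and all 5 were above normal at D7 and, but for Marco, below normal at D14. Clec4f, a lectin that marks Kupffer cells in mice, was at 37.5, 60.4 and 53.9 FPKM in Normal liver. It was at 10.9, 21.4 and 17.9 FPKM at 6 h and at 19.9, 22.3 and 21.4 FPKM at 24 h. It was at 33.7, 34.1 and 25.8 FPKM at D3, at 140.4, 96.4 and 99.4 FPKM at D7 and at 21.8, 24.8 and 15.6 FPKM at D14. All samples at 6 h, 24 h, D3 and D14 lay below all normal samples, and all D7 samples lay above them. The mean was 0.330 of normal at 6 h, 2.21 times normal at D7 and 0.409 of normal at D14. In bulk liver, fewer cells of a type and less RNA per cell cannot be told apart.

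**Figure D1:**
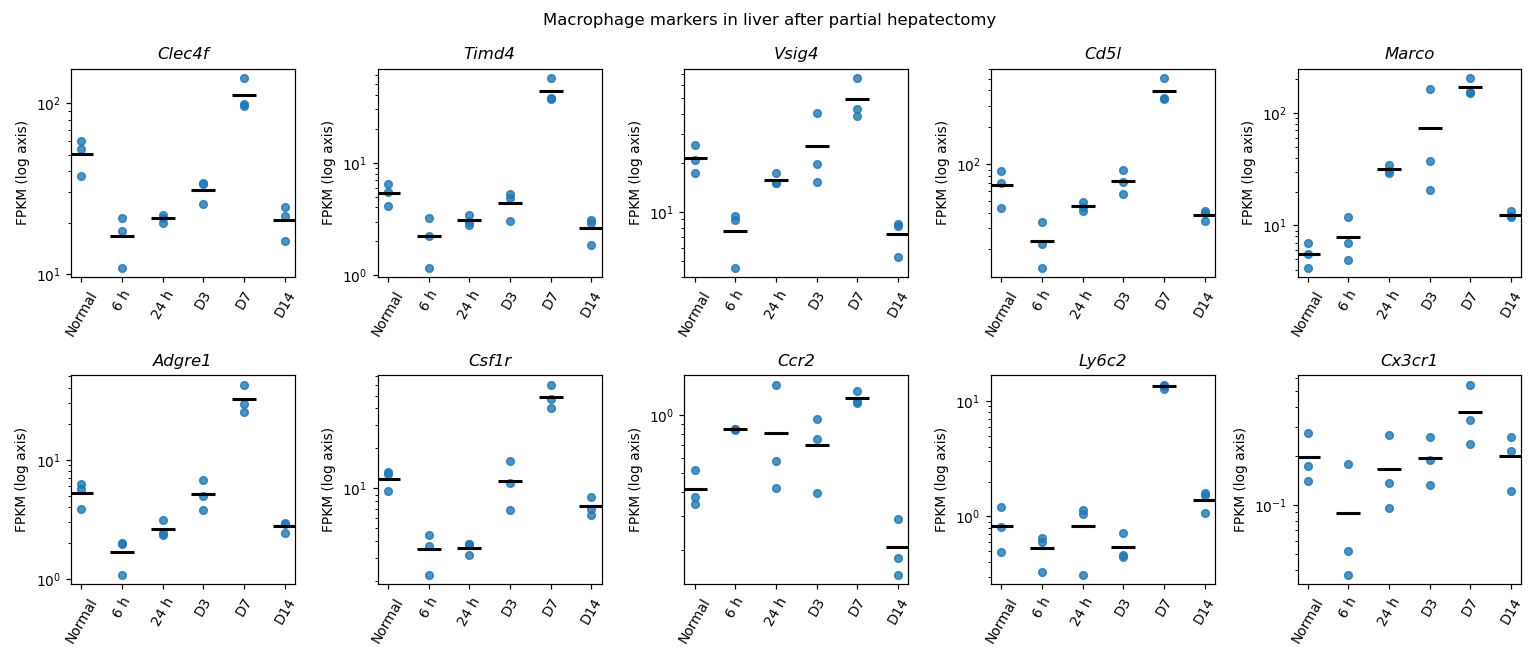
FPKM of the 10 markers in each of the 18 liver samples (blue points, log axis), with the group mean as a black bar, by time after PHX. D7 samples lie above all normal samples for every marker but Cx3cr1, and Marco is the only one already above normal at 24 h.

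Timd4, a receptor for phosphatidylserine on dying cells and a marker of long-lived resident macrophages, stood further above normal at D7 than Clec4f. It was at 4.13, 6.49 and 5.46 FPKM in Normal liver and at 1.16, 3.25 and 2.24 FPKM at 6 h. At D7 it reached 56.5, 37.7 and 36.5 FPKM, 8.13 times the normal mean, with no overlap. At D14 it was at 2.89, 3.11 and 1.85 FPKM, below all normal samples.

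Vsig4, a complement receptor that captures particles from blood, was at 17.3, 25.8 and 20.95 FPKM in Normal liver. It was at 4.55, 9.51 and 8.99 FPKM at 6 h, at 66.4, 43.0 and 38.8 FPKM at D7 and at 8.45, 8.26 and 5.31 FPKM at D14. At 24 h and D3 it overlapped normal. Cd5l, a secreted protein of resident macrophages that binds IgM and acts on lipid metabolism, was at 43.3, 87.5 and 69.6 FPKM in Normal liver and at 14.1, 33.5 and 22.2 FPKM at 6 h. It reached 505.7, 340.8 and 347.8 FPKM at D7, the highest level of any of the 10 markers, and was at 39.4, 41.5 and 33.9 FPKM at D14. Both genes therefore lay below all normal samples at 6 h and D14 and above them at D7.

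Marco, a scavenger receptor for bacteria and particles, had another course. It was at 4.20, 5.63 and 6.99 FPKM in Normal liver and at 4.91, 11.9 and 6.93 FPKM at 6 h, which overlapped. It was at 29.5, 34.4 and 30.6 FPKM at 24 h, 5.62 times normal, when Clec4f lay below normal. At D3 it was at 37.1, 162.1 and 20.6 FPKM, and at D7 at 204.8, 149.4 and 152.7 FPKM, 30.1 times normal. At D14 it was at 12.04, 11.9 and 13.6 FPKM, still above all normal samples. Marco was thus the only Kupffer cell marker above normal at 24 h, D3 and D14.

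The second sample of D3 stood apart from the other libraries. Its Pearson r with the other D3 samples, over log2(FPKM + 1), was 0.882 and 0.902, against 0.974 to 0.997 within the other groups. It held 162.1 FPKM of Marco and 225.4 FPKM of Cd14, a co-receptor for bacterial lipopolysaccharide. It also held 99.5 FPKM of Chil3, from the list of monocyte and recruited macrophage genes. Chil3 was at or below 0.382 FPKM in both other D3 samples. Without the second D3 sample, Marco was at 5.15 times normal at D3, and the other 9 markers kept their position relative to normal. Chil3 was named after its values were seen.

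Levels were also taken relative to Clec4f within each sample, which shows how the markers moved against each other. Timd4 to Clec4f was 0.110, 0.107 and 0.101 in Normal liver and 0.403, 0.391 and 0.367 at D7, 3.64 times normal. Cd5l to Clec4f was 1.15, 1.45 and 1.29 in Normal liver and 3.603, 3.54 and 3.498 at D7, 2.73 times normal. Vsig4 to Clec4f was 0.460, 0.428 and 0.389 in Normal liver and 0.473, 0.446 and 0.391 at D7, which overlapped. So Vsig4 and Clec4f moved nearly in step at D7, and Timd4 and Cd5l stood further above normal than either.

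Marco to Clec4f moved most. It was 0.112, 0.0932 and 0.130 in Normal liver, 0.452, 0.555 and 0.387 at 6 h and 1.48, 1.55 and 1.43 at 24 h. It was 1.10, 4.76 and 0.798 at D3, 1.46, 1.55 and 1.54 at D7 and 0.553, 0.478 and 0.869 at D14. Every later sample lay above every normal sample, including those at 6 h, where Marco itself overlapped normal. At 24 h the mean ratio to Clec4f was 1.76 times normal for Vsig4, 1.64 for Cd5l and 1.38 for Timd4, and these 3 lay above all normal samples at 24 h and D3 and overlapped them at 6 h. At D14 Cd5l and Timd4 to Clec4f still lay above normal, and Vsig4 to Clec4f lay below, at 0.832 of the normal mean. These ratios use the same values as the levels and carry no test.

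**Figure D2:**
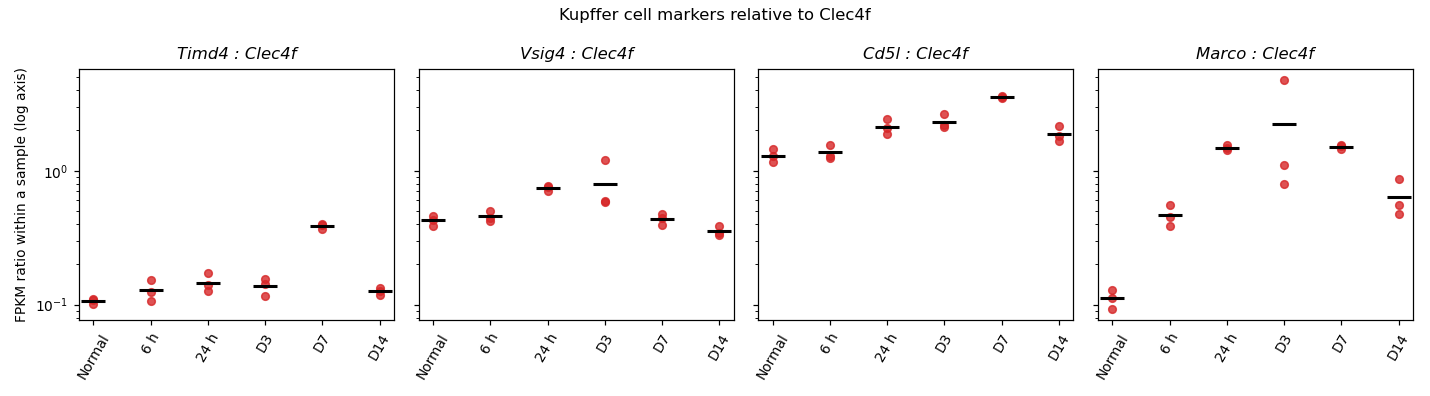
FPKM of Timd4, Vsig4, Cd5l and Marco divided by FPKM of Clec4f within each liver sample (red points, log axis), with the group mean as a black bar. Marco to Clec4f is above all normal samples at each time, Timd4 and Cd5l to Clec4f stand highest at D7, and Vsig4 to Clec4f at D7 overlaps normal.

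Over the 18 liver samples, the 15 pairs among Clec4f, Timd4, Vsig4, Cd5l, Adgre1 and Csf1r had Pearson r from 0.831 to 0.985. The 6 pairs of Marco with these genes had r from 0.593 to 0.779. Without the D7 samples the ranges were 0.641 to 0.949 and 0.000847 to 0.509. These values describe samples that share libraries and the D7 peak.

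The general markers were low and high at the same times as Clec4f, except at D3. Adgre1, the F4/80 antigen, was at 3.88, 6.28 and 5.69 FPKM in Normal liver, at 1.10, 2.01 and 1.98 FPKM at 6 h and at 42.2, 29.2 and 25.1 FPKM at D7. The D7 mean was 6.09 times normal. Csf1r, the receptor that keeps macrophages alive, was at 9.57, 12.8 and 13.3 FPKM in Normal liver and at 3.80, 3.14 and 3.83 FPKM at 24 h. It reached 60.1, 46.8 and 40.4 FPKM at D7. Both lay below all normal samples at 6 h, 24 h and D14, above them at D7, and overlapped at D3, where Clec4f lay below. Adgre1 to Clec4f overlapped normal at 6 h and lay above it from 24 h on, at 2.73 times normal at D7. Csf1r to Clec4f lay below normal at 6 h and 24 h, at 0.874 and 0.717 of normal, and above it from D3 on, at 1.85 times normal at D7.

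Monocyte markers were low in bulk liver, and Ccr2 alone of them was already above normal at 6 h. Ccr2, the receptor for Ccl2, was at 0.346, 0.517 and 0.376 FPKM in Normal liver and at 0.845, 0.853 and 0.836 FPKM at 6 h, above all normal samples. It was at 1.34, 1.19 and 1.16 FPKM at D7 and at 0.289, 0.148 and 0.182 FPKM at D14, below all normal samples. Ly6c2, the surface antigen of classical monocytes, overlapped normal at every time but D7. It was at 0.492, 1.21 and 0.803 FPKM in Normal liver and at 12.9, 13.8 and 13.6 FPKM at D7, 16.1 times normal.

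Ly6c2 has a near-identical neighbour, Ly6c1, which endothelial cells express, and the division of reads between them is uncertain. Ly6c1 was at 0.624, 0.498 and 0.523 FPKM in Normal liver and at 5.81, 5.47 and 7.63 FPKM at D7. Cx3cr1, the fractalkine receptor of patrolling monocytes, was at 0.140 to 0.274 FPKM in Normal liver and at 0.236 to 0.542 FPKM at D7. It overlapped normal at every time. Relative to Adgre1, Ccr2 was 0.0661 to 0.0893 in Normal liver, 0.423 to 0.771 at 6 h and 0.0317 to 0.0461 at D7. So the 6 h samples held more Ccr2 for their Adgre1 than any normal sample, and the D7 samples held less. Ly6c2 to Adgre1 went the other way at D7, at 0.304, 0.474 and 0.541 against 0.127, 0.192 and 0.141 in Normal liver, and was also above normal at D14, at 3.33 times the normal mean.

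Counted over the 10 markers, 6 lay below all normal samples at 6 h and 1 above, where 48.6% and 16% of the 11114 genes kept in the liver table did so. At 24 h, 4 lay below and 1 above, against 25.4% and 23.4% of genes. At D3, 1 lay below and 1 above, against 19.6% and 20.2%. At D7, 9 lay above and 0 below, against 39% and 16.7%. At D14, 7 lay below and 1 above, against 30% and 13.7%. Of the 10, 9 passed the filter of 1 FPKM in at least 3 samples. Cx3cr1 did not pass, and Ccr2 passed through 1 sample at 24 h and the 3 samples at D7. Since the choice of members used these values, nothing is read from the counts. On the log2(FPKM + 1) scale the D7 difference from normal was 1.14 ± 0.24 (SE, n = 3) for Clec4f, 1.15 ± 0.32 for Vsig4, 2.59 ± 0.28 for Cd5l, 2.80 ± 0.25 for Timd4 and 4.69 ± 0.50 for Marco. The median of all genes was at -0.28 at 6 h and at -0.04 after quantile normalization, under which the 6 h difference was -1.28 for Clec4f, -0.72 for Timd4 and -1.23 for Csf1r.

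Macrophage genes outside the 10 were tested with limma in fits of whole tables, with Benjamini-Hochberg adjustment. Calls needed 2-fold change or more together with an adjusted p under 0.05. Of 51 other macrophage genes in 3 lists, 46 could be tested in the liver. At 6 h, 11 fell and 2 rose, where 11.5% and 4.78% of all genes did. At 24 h, 3 fell and 0 rose, against 4.16% and 3.74%. At D3, 0 fell and 3 rose, against 2.49% and 3.33%. At D7, 30 rose and 0 fell, against 7.81% and 1.03%. At D14, 4 fell and 1 rose, against 2% and 0.981%. Where limma counted 0, an unadjusted p under 0.05 gave 7 that rose at 24 h, 4 that fell at D3 and 0 that fell at D7, and limma voom on recovered reads gave 1, 0 and 0.

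A gene that reaches 1 FPKM in 3 samples only at D7 had to be high there, so the D7 count was also taken over the 40 genes that reach it without the D7 samples. Of these, 25 rose, with a median change on the log2 scale of 2.03, against 0.13 over all genes. At 6 h the median of the 46 genes was -0.32, against -0.28. The D7 count was 26 to 31 with any 1 sample left out. At 6 h, 7 fell without Normal liver replicate 2 or 3, 6 without the first 6 h sample and 5 after quantile normalization. At 24 h, 4 rose without the first 24 h sample or the second D3 sample, and 5 fell without the first normal sample. The 3 genes that rose at D3 were Id3, Trem2 and Cd9. At D3, 0 of 45 rose by limma without the second D3 sample, with 2 at an unadjusted p under 0.05, and 8 rose and 1 fell without replicate 3 and 7 rose and 2 fell without replicate 1. The number that rose at D3 was 1 without Normal liver replicate 1 and 0 without replicate 3. At D14, 2 rose without the second D3 sample and 0 without the first or second normal or D14 replicate 1 or 3.

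Of 14 other Kupffer cell genes, 13 were tested. At D7, 6 rose, led by Il18bp, a soluble inhibitor of IL18, at 101.7, 93.9 and 87.9 FPKM against 8.23, 11.5 and 11.2 FPKM in Normal liver (log2 change 3.09 ± 0.23 SE, limma adjusted p = 9.63e-08). Folr2, a folate receptor of resident macrophages, fell at 6 h by 1.49 on the log2 scale (limma adjusted p = 9.2e-05) and rose at D7. Slc40a1, the iron exporter ferroportin, fell by 2.29 at 6 h (limma adjusted p = 9.71e-06). Neither Il18bp nor Slc40a1 is confined to Kupffer cells. In Hepatocytes they were at 4.77 to 5.31 and 20.7 to 21.5 FPKM. In the IL6 cultures at D3 and D14, where Clec4f was listed at 0, they were at 3.36 to 4.52 and 13.5 to 32.9 FPKM. Id3, a transcription factor of Kupffer cells that hepatocytes express too, rose at 6 h by 1.87 on the log2 scale (limma adjusted p = 2.96e-05).

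Of 18 other general macrophage genes, 14 rose at D7, with a median log2 change of 2.20. Laptm5, a lysosomal protein of blood cells, rose from 5.98, 6.73 and 8.92 FPKM to 62.9, 49.9 and 45.2 FPKM (log2 change 2.71 ± 0.27 SE, limma adjusted p = 2.1e-06). Aif1, the calcium-binding protein IBA1, was called lower at 6 h by 1.498 on the log2 scale and higher at D7 by 2.53. Cd14 rose at 6 h, to 210.6, 50.2 and 70.2 FPKM from 1.51, 1.47 and 1.79 FPKM (log2 change 5.15 ± 1.33 SE, limma adjusted p = 0.00454). At D14 Msr1, a scavenger receptor, was called lower (log2 change -1.43 ± 0.29 SE, limma adjusted p = 0.00342).

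Of 19 genes of monocytes and recruited macrophages, 15 were tested, and 10 rose at D7. Of the 10 that reach the filter without the D7 samples, 6 rose. Lgals3, galectin-3, rose from 2.89, 5.56 and 4.38 FPKM to 44.5, 39.0 and 38.5 FPKM (log2 change 3.01 ± 0.56 SE, limma adjusted p = 0.000766). S100a6, a calcium-binding protein, rose by 2.70 on the log2 scale (limma adjusted p = 0.00195). At 6 h and 24 h 0 genes of this list passed in limma, with 2 and 4 that rose at an unadjusted p under 0.05, 2 and 1 that rose by voom, and 0 that fell by either.

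**Figure D3:**
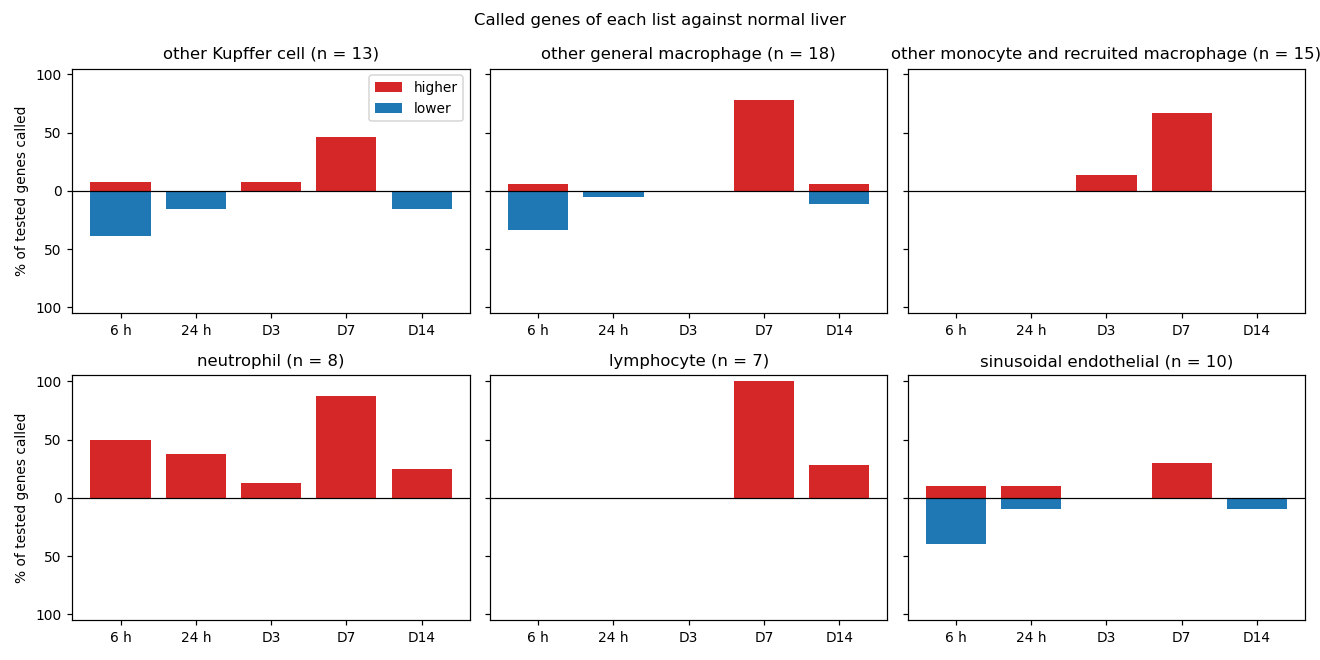
Share of the tested genes of 6 lists called higher (red, upward) or lower (blue, downward) than Normal liver at each time after PHX, with the number tested in each panel title. All 3 macrophage lists, neutrophil and lymphocyte genes have their largest share of higher calls at D7, where 5 of the 7 lymphocyte and 3 of the 8 neutrophil genes reach the filter only through D7 samples.

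Other cell types moved with the markers at D7. Of the 5 neutrophil genes that reach the filter without the D7 samples, 4 rose, with S100a9 at 69.5, 34.0 and 44.7 FPKM against 1.35, 3.70 and 2.18 FPKM. Of 12 lymphocyte genes, 2 reach it without the D7 samples and both rose, with Gzma at 26.8, 25.3 and 30.3 FPKM against 0.764, 1.20 and 0.748 FPKM. Summed over the list, 12 lymphocyte genes came to 50.8 to 54.0 FPKM at D7 against 2.98 to 5.54 FPKM in Normal liver, with none at 0 in all 3 samples. The 11 neutrophil genes summed to 69.3 to 136.5 FPKM at D7 against 2.36 to 8.004 FPKM in Normal liver. The summed 10 sinusoidal endothelial genes were at 212.2 to 326.3 FPKM at D7 against 168.4 to 182.8 FPKM, and 3 of the 10 rose. Of 5 red blood cell genes tested, 4 rose. The 8 hepatocyte genes summed to 41902 to 48615 FPKM at D7 against 55955 to 60395 FPKM, and 0 of them passed in limma, at an unadjusted p under 0.05 or by voom. Of 6 proliferation genes, 4 rose at D7 and 6 at D3. The 6 dendritic cell genes summed to 3.92 to 4.61 FPKM at D7 against 0.709 to 1.16 FPKM, and 0 of them reach the filter without the D7 samples. Of 8 stellate cell genes 0 passed in limma, with 3 that rose at an unadjusted p under 0.05 and 2 by voom. At 6 h, 4 of 10 sinusoidal endothelial genes were called lower and 1 higher. The 10 summed to 90.0 to 111.2 FPKM at 6 h, against 168.4 to 182.8 FPKM in Normal liver. Of the 7 neutrophil genes that reach the filter without the 6 h samples, 3 rose at 6 h. Of all genes, 11.5% were called lower at 6 h and 4.78% higher. The part of these other cell types in the marker levels was not tested at either time.

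Among the ligands, Csf1 was at 7.03, 5.72 and 5.46 FPKM at D7 against 3.09, 2.35 and 3.17 FPKM in Normal liver. All D7 samples lay above normal, but the change on the log2 scale, 0.87 ± 0.16 (SE, limma adjusted p = 0.000629), was short of 2-fold. All 4 ligands tested were higher at D7 at an unadjusted p under 0.05, and 3 were called by voom. Il34 was at 1.54 to 2.75 FPKM at D7 against 1.05 to 1.14 FPKM. Ccl2 was called higher at 24 h, at 3.38, 5.48 and 9.97 FPKM, and at D7, at 8.50, 5.60 and 5.83 FPKM, against 0.877, 1.02 and 0.879 FPKM in Normal liver. Ccl7 was called at the same times, at 2.06, 1.26 and 4.19 FPKM and at 2.63, 2.32 and 2.07 FPKM, against 0.220, 0.224 and 0.345 FPKM. Ccl12, listed at 0 in all normal and all D14 samples, was at 0.684 to 0.849 FPKM at D7, and Cx3cl1, the ligand of Cx3cr1, was at 0.505 to 0.820 FPKM against 0.188 to 0.202 FPKM. Neither passed the filter.

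The 9 macrophage cytokines summed to 40.1 to 61.7 FPKM at D7 against 3.72 to 3.84 FPKM in Normal liver. Of them, 3 reach the filter without the D7 samples, and all 3 rose, Il1b among them. Il10, an anti-inflammatory cytokine, was at 16.2, 9.42 and 10.2 FPKM against 0, 0.0824 and 0.0794 FPKM in Normal liver. Il1b was at 19.4, 12.6 and 13.1 FPKM against 1.28, 0.727 and 1.21 FPKM.

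Among the genes whose course over the 18 liver samples was most like the mean of the 5 Kupffer cell markers were Clec4a3, Cybb, Cd300ld, Fcgr1 and Cd48. Their Pearson r was 0.978 to 0.982, and 0.913 to 0.943 over the 15 samples without D7. For the mean of Ccr2 and Ly6c2 the most alike were Ms4a4c, Plac8, Msn, Ptprm, Fli1 and Actr3, with r of 0.931 to 0.946 over 18 samples and 0.617 to 0.722 without D7. Ccr2 and Ly6c2 themselves had r of 0.472 over 18 samples and -0.451 without D7, so their mean is not a shared course. Ccr2, Ms4a4c and Ptprm would not reach the filter without the D7 samples, so the r over 18 samples rests on the D7 peak.

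The purity check asks which of these transcripts the isolated hepatocytes carried and what was left of them in culture. Clec4f was at 2.90, 3.28 and 3.46 FPKM in Hepatocytes and was listed at 0 in all D3 and D14 samples. Cd5l was at 5.31, 4.99 and 6.48 FPKM in Hepatocytes, at 0.0345, 0.0145 and 0.0164 FPKM at D3 and at 0.119, 0.303 and 0.124 FPKM at D14. Timd4 was at 0.353, 0.488 and 0.322 FPKM in Hepatocytes and was listed at 0 in all 6 cultures. So transcripts of the resident macrophage were present in the hepatocyte preparation at low level and near or at 0 in the cultures.

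Vsig4 was at 0.524, 0.766 and 1.00 FPKM, Marco at 0.438, 0.189 and 0.366 FPKM and Adgre1 at 0.2996, 0.279 and 0.326 FPKM in Hepatocytes. None of the 3 was above 0.0908 FPKM in a culture sample. Ccr2, at 0.0290 to 0.151 FPKM in Hepatocytes, was above 0 in 1 culture sample, with 2 reads. Ly6c2 was at 5.66, 5.07 and 6.28 FPKM in Hepatocytes and at or below 0.0408 FPKM in culture, while Ly6c1 was at 0.390 to 0.582 FPKM in Hepatocytes and at 5.63 to 6.67 FPKM at D14. In Normal liver, Ly6c2 was at 0.492 to 1.21 FPKM, lower than in Hepatocytes. Clec4f went the other way, at 37.5 to 60.4 FPKM in Normal liver and 2.90 to 3.46 FPKM in Hepatocytes. Liver and cell samples were fitted separately, and differences between them were not tested.

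Csf1r was the exception. It was at 0.984, 1.14 and 1.06 FPKM in Hepatocytes, at 0.0370, 0.0272 and 0.0484 FPKM at D3 and at 0.818, 0.725 and 0.864 FPKM at D14, where the Kupffer cell markers other than Cd5l stayed at or below 0.0908 FPKM. Cx3cr1 overlapped Hepatocytes at D3, at 0.00981 to 0.0310 FPKM against 0.0104 to 0.0644 FPKM, and at D14, at 0 to 0.0220 FPKM. At both times 9 of the 10 markers lay below all Hepatocytes samples and 0 above, where 19.5% and 21.8% of the 12328 genes kept lay below and 72.6% and 72% above. Only 4 of the 10 markers passed the filter in the cell table. Of these, Clec4f, Cd5l and Ly6c2 reached it only through Hepatocytes, so they had to be lower in culture. Nothing is read from these counts.

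**Figure D4:**
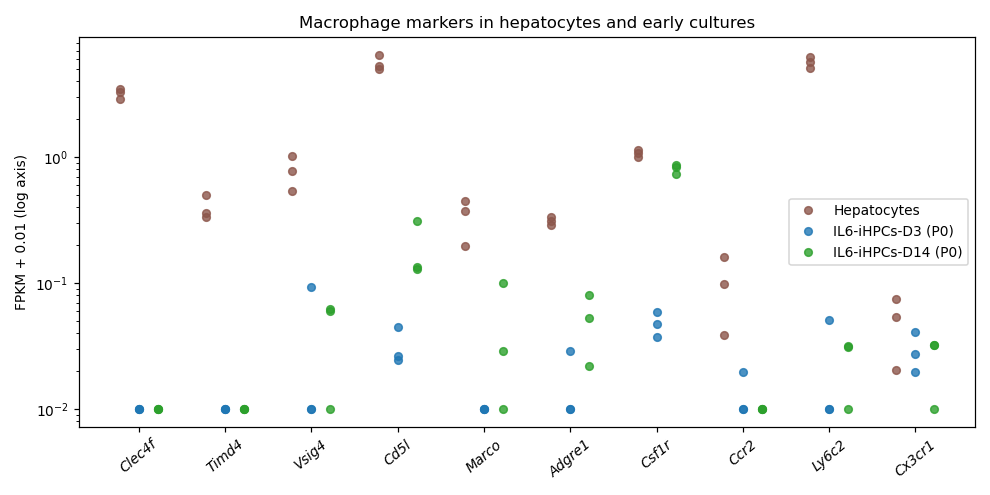
FPKM + 0.01 (log axis) of the 10 markers in Hepatocytes (brown), IL6-iHPCs-D3 (P0) (blue) and IL6-iHPCs-D14 (P0) (green), 3 samples each, with points at the bottom of the axis listed at 0. Csf1r at D14 is near its level in Hepatocytes while Clec4f and Timd4 are at 0.

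Of the 51 other macrophage genes, 30 could be tested in the cell table. At D3, 13 fell and 8 rose, where 12.1% and 53.9% of all genes did, and at D14, 13 fell and 10 rose, against 12.9% and 50%. Genes that reach the filter only through the Hepatocytes samples had to be lower in culture. Of the 21 that reach it without them, 6 fell at D3 and 5 at D14, and without any 1 of the 3 Hepatocytes samples 6 or 7 fell at D3 and 6 at D14. C1qa, a complement component of macrophages, and Tyrobp, a signalling adaptor, reach it only through Hepatocytes, and C1qa was there at 3.85, 3.48 and 3.80 FPKM and in culture at or below 0.208 FPKM. Among those that rose were Cd14, Lgals3, S100a6 and Spp1, genes that are not confined to macrophages. Of the genes that fell and reach the filter without Hepatocytes, 4 at both times were C6, Id3, Nr1h3 and Hpgd. C6 was at 63.4 to 82.7 FPKM in Hepatocytes, where Clec4f was at 2.90 to 3.46 FPKM. Of 8 hepatocyte genes, 7 were called lower at both times. Whether these falls came from macrophages or from hepatocytes was not tested. The 12 lymphocyte genes summed to 11.6 to 12.1 FPKM in Hepatocytes and to at most 0.252 FPKM in culture, and 7 red blood cell genes to 107.2 to 123.8 FPKM and at most 0.437 FPKM. None of the lymphocyte or red blood cell genes tested reaches the filter without Hepatocytes, so no count of their falls is given.

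Most ligands of these receptors were higher in the same cultures. Ccl2 was at 120.8, 213.1 and 110.3 FPKM at D3 and at 50.6, 47.4 and 47.5 FPKM at D14, against at most 0.176 FPKM in Hepatocytes. Csf1 was at 26.5, 23.0 and 32.9 FPKM at D3 and at 19.7, 17.0 and 20.6 FPKM at D14, against 0.821, 0.858 and 0.598 FPKM. Of 5 ligands tested, 4 were called higher at D3 and 5 at D14, by limma, where 53.9% and 50% of all genes were. The median log2 change of all genes against Hepatocytes was 1.14 at D3 and 1.00 at D14. Ccl12 was listed at 0 in all 6 culture samples and could not be tested. In the separate day 7 table Ccl7 was listed at 0 in all 3 Primary hepatocytes samples, at 9.25 to 10.7 FPKM in the culture labelled HCM-Hepa-D7 (P0) and at 5.94 to 6.70 FPKM in IL6-iHPCs-D7 (P0).

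Csf1r was also measured in the 8 passaged groups. It was at 17.8 to 21.3 FPKM in IL6-iMHs-mouse-1 (P35) and at or below 4.31 FPKM in the other 7, which include IL6-iHPCs-mouse-1 (P35).

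**Figure D5:**
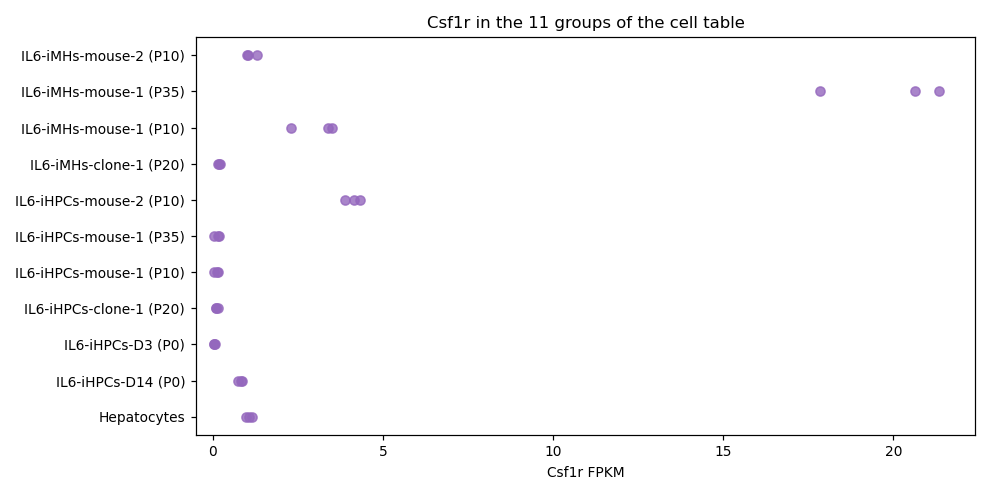
FPKM of Csf1r in the 3 samples of each of the 11 groups of the cell table. IL6-iMHs-mouse-1 (P35) lies at 17.8 to 21.3 FPKM, and all other groups lie at or below 4.31 FPKM.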

How the data were processed

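Values in the files are FPKM that the authors deposited for 18 liver samples, 33 cell samples and 9 samples of cultures at day 7. The unit was inferred, since the sources used here do not state it. Per the submitters' processing notes the tools were TopHat 1.4.1 and Cufflinks 1.3.0, and the build mm10. Which step each tool made is not given in the sources used here.

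The members and gene lists were chosen with earlier results of these data known. Repeated symbols (2 per table) were averaged. The day 7 file gave 480 complete rows and lists no member. A gene was kept if 3 samples or more reached 1 FPKM (11114 in the liver table and 12328 in the cell table). Limma 3.58.1 (R 4.3.3) was run on log2(FPKM + 1) with a trend, 1 fit per table, and Benjamini-Hochberg adjustment covered every gene of the fit. A log2 change on this scale understates the change of low genes. Ratios and overlaps were computed in Python 3.11.15.

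Reads were recovered from the steps between low values, whole within 0.02 reads for 17327 of 17329 liver genes and 18826 of 18828 cell genes. Depth was 52.0 M to 79.2 M reads per liver sample and 49.3 M to 88.8 M per cell sample. Replicates differed by more than sampling noise.

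Named are all members, all ligands, from each other list up to 2 of the largest rises and 2 of the largest falls past the threshold in the liver, and 6 genes most like each of 2 marker means. Genes outside this rule were chosen after their values were seen: Chil3, Trem2, Cd9, C1qa, Tyrobp, Spp1, C6, Nr1h3 and Hpgd. Of the other cell types only leading genes are named, and some results under the rule are not reported here. In simulated data for the liver D7 design with 11114 genes, 90% of genes changed by 1.5 on the log2 scale and 100% of those changed by 3 were recovered. The changed genes were drawn from those with a Normal liver mean above 2 on the log2(FPKM + 1) scale. These rates therefore do not cover genes that are lower in Normal liver. Settings varied were the pseudocount (0.1), the filter (none, or 5 FPKM), quantile normalization, a replicate block, the groups in the fit, and the samples, each left out in turn. Limma voom on recovered reads, list counts without the second D3 sample, and counts over genes that reach the filter without the group that is high, were chosen later, with the results in view.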

Additional observations from a re-analysis of the deposited data

Results flagged for a closer look

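The 6 markers Clec4f, Timd4, Vsig4, Cd5l, Adgre1 and Csf1r lay below all normal samples at 6 h and above all of them at D7. Of the 11114 genes kept, 48.6% lay below at 6 h and 39% above at D7, each time taken alone. The choice of markers used these values, so nothing is read from their number. The D7 means of the 6 markers, as multiples of normal, were 2.21 for Clec4f, 8.13 for Timd4, 2.32 for Vsig4, 5.96 for Cd5l, 6.09 for Adgre1 and 4.13 for Csf1r. The difference between the times was not tested.

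Csf1r was present in passaged cells that the purity check does not use. Its mean was 19.9 ± 1.85 FPKM (SD, n = 3) in IL6-iMHs-mouse-1 (P35), against 1.06 ± 0.0766 FPKM (SD, n = 3) in Hepatocytes. It was at 3.06 FPKM in IL6-iMHs-mouse-1 (P10), 4.11 FPKM in IL6-iHPCs-mouse-2 (P10) and 0.122 FPKM in IL6-iHPCs-mouse-1 (P35). In all 24 passaged samples Clec4f, Timd4, Vsig4 and Ccr2 were listed at 0, and Adgre1 had at most 2 reads. Cx3cr1 had a mean of 0.358 FPKM in IL6-iMHs-mouse-1 (P10), with 138, 85 and 61 reads, above all Hepatocytes samples.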

How the results depend on the processing

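The number of other macrophage genes that rose at D7 was 30 and stayed within 1.5 times of that under all alternatives. Under a pseudocount of 0.1 the counts of genes that rose were 7 at 6 h, 3 at 24 h and 5 at D3, and 5 fell at 24 h. Voom on recovered reads gave 4 that rose at 6 h and 1 at 24 h. Quantile normalization gave 5 that fell at 6 h. A fit of only the compared groups gave 3 that rose at 24 h, 1 at D3 and 3 at D14, and no filter gave 0 that rose at D14. In culture, a filter at 5 FPKM gave 6 that fell at D3 and 5 at D14, with fewer genes tested. Genes that reach the filter without Hepatocytes gave 6 and 5. Leaving out 1 sample each, the counts that rose were 2 to 3 at 6 h, 0 to 4 at 24 h, 0 to 8 at D3, 26 to 31 at D7 and 0 to 2 at D14. Those that fell were 6 to 12, 2 to 5, 0 to 2, 0 to 0 and 3 to 5. In culture they were 8 to 8 that rose and 6 to 13 that fell at D3, and 10 to 10 and 6 to 13 at D14. Other causes were not tested. Of 1404 values of the markers under alternatives, 1359 moved by less than the spread between replicates and 45 by more, and 12 changed sign, all from values under 1 on the log2 scale. Same-numbered samples did not deviate together (r from -0.28 to 0.20 in the liver), so the replicate numbers were not taken as pairs, and the replicate block gave 30 genes that rose at D7.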
